A study of Mus musculus with 36 samples.

Results

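The change of the response to pneumonectomy (PNX) between day 1 and day 3 was followed in 9 month mice. PNX is the surgical removal of the left lung, after which the right lung enlarges. The comparison used 12 of the 36 arrays of the series, which are the left and right lungs of 6 of its 18 pools. Each pool held RNA of 2 mice. The response of a pool was its log2 ratio of right over left lung, and the 3 ratios of day 3 were set against the 3 ratios of day 1 for every probe measured.

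On day 3, the 9 month group was 3 pools of right lungs taken 3 days after PNX and 3 pools of left lungs that the same mice had lost at surgery. On day 1, the right lungs came from other 9 month mice 1 day after PNX, with their own left lungs as 3 pools. All were female C57BL6 mice with no transgene, and all had received antibiotic, fluid and anesthesia at surgery. By the methods, the analgesic buprenorphine was given after PNX, with dosing under way on day 1 and ended before day 3. Its effect cannot be told apart from that of day. No sham-operated lungs are among the arrays, so the ratio holds the opened chest and the side of the lung as well as the loss of tissue. RNA was from whole lung, in which fewer cells of a type and less RNA per cell cannot be told apart.

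After PNX in adult mice the remaining lung gains tissue by division of resident cells and by new matrix around the airspaces. A cell that enters the cycle makes the enzymes of nucleotide synthesis and the licensing and elongation factors of DNA replication in S phase. It makes the kinases, spindle proteins and kinetochore proteins of mitosis later, in G2 and M phase. The first days after any chest surgery also bring an acute phase of wound signals, clotting factors and stress hormones, and an influx of blood monocytes.

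Every array carried lung transcripts at high level. The probes of Sftpc, Sftpb, Ager, Scgb1a1 and Cdh5 lay above the 97.0th percentile of all probes on each of the 12 arrays. Between 43.2% and 47.2% of probes were detected. The 75th percentile of intensity was 321 to 384 in right lungs and 188 to 197 in left lungs on day 3, against 309 to 339 in right lungs and 126 to 170 in left lungs on day 1. The number of arrays limits the precision, and p-values measure the spread between these pools. The 3 right lung arrays of day 3 correlated less with each other (mean r of an array with the others of its group 0.974 to 0.982) than the arrays of the other groups (0.984 to 0.991). The arrays of each chip were all of 1 day and 1 lung side, so chip, side and day of the cohort cannot be told apart. Comparisons are over 15795 of 45281 probes, which were detected on all 36 arrays and stand for 11410 genes.

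The genes of mitosis started their response between day 1 and day 3. Of 26 listed genes of mitosis, 14 were detected on all arrays, and the response of 13 rose by day 3, by a median of 2.70 on the log2 scale over the 14. The list was chosen with earlier results of these data known, so its counts describe these genes and do not test the list. The median change of all 11410 genes was 0.02, and 2.98% of all probes rose and 1.98% fell. A change was called where limma gave a Benjamini-Hochberg adjusted p under 0.05 and the ratio differed at least 1.5-fold between the days, which is 0.58 on the log2 scale. On day 3 the median log2 ratio of right over left lung of the 14 genes was 2.51 and 13 were called up, where 8.43% of all probes were up and 10.4% down. On day 1 the median was -0.13, with none up and 2 down, where 9.65% of all probes were up and 12% down. The members that were not detected on all arrays are left out of these medians. Without the detection filter all 26 were tested and 18 rose.

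The promoters of 7 of these genes are shown because mitotic promoters carry a pair of short motifs, the CCAAT box and the cell cycle homology element TTTGAA. The windows run from 250 bases before to 50 bases after the start of the gene (RefSeq, GRCm38.p6), and capitals mark CCAAT and TTTGAA on either strand (ATTGG and TTCAAA on the strand shown).
Prc1, chr7:80294201-80294500 (plus strand): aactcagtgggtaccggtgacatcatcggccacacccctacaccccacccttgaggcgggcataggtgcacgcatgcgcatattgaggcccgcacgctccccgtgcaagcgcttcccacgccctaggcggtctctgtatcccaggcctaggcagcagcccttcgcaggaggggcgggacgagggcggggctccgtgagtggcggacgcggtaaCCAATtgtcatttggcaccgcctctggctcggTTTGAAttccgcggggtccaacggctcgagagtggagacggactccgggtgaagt
Cdk1, chr10:69352863-69353162 (minus strand): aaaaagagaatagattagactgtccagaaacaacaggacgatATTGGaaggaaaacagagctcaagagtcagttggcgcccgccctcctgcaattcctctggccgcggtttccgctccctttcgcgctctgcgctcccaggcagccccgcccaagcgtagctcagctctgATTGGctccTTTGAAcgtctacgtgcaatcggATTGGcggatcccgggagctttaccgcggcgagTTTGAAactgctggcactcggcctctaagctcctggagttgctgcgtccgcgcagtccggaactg
Cdc20, chr4:118437294-118437593 (minus strand): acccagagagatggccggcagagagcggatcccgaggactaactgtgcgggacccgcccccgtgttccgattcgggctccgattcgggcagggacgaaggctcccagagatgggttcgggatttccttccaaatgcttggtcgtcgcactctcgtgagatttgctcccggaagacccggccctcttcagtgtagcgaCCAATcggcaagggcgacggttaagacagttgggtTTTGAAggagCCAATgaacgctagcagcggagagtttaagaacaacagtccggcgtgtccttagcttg
Plk1, chr7:122159185-122159484 (plus strand): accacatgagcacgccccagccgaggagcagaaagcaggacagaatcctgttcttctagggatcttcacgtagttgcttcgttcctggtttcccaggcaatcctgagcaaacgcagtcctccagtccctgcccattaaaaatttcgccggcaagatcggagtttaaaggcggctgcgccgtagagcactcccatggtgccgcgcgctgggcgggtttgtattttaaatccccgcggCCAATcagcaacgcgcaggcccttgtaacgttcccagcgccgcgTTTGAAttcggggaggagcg
Top2a, chr11:99024140-99024439 (minus strand): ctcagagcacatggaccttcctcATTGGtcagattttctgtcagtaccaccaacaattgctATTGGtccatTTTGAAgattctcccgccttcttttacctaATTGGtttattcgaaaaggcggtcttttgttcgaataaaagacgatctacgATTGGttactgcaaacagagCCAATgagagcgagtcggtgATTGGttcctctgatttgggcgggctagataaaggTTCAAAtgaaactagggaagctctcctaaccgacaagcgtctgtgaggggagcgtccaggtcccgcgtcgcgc
Mki67, chr7:135716330-135716629 (minus strand): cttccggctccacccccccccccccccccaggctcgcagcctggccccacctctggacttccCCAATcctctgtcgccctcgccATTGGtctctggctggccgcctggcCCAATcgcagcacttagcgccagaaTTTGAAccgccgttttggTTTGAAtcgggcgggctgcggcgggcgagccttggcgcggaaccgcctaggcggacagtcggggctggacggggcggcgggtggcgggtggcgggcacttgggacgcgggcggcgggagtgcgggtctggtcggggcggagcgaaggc
Birc5, chr11:117848987-117849286 (plus strand): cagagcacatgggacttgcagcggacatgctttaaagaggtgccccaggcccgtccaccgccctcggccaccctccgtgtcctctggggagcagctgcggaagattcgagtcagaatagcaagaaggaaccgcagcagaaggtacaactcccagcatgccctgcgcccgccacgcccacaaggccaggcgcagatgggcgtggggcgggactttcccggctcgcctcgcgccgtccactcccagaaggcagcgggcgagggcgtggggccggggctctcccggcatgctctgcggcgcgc
Among 22 genes of the mitosis list with a window in the table, 86.4% held CCAAT and 72.7% held TTTGAA, and 72.7% held both. Of the 13 that rose, 10 held both (76.9%). Over all 27025 promoters of that length, with the first listed start for each gene, the shares were 37.9%, 18.1% and 7.12%. The window of Birc5 held neither motif, which says only that these letters are not in it. In the 7 windows no CCAAT overlapped a TTTGAA. A match of letters is a description and not a site of binding. For the acute phase list, whose genes did not pass the test of the change, the STAT motif TTCNNNGAA was in 2 of 17 windows, against 8.47% of all promoters.

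Prc1, which bundles the microtubules of the central spindle and whose window holds 1 of each motif, had log2 ratios of 2.15, 2.82 and 3.58 in the pools of day 3, against -0.35, -0.59 and -0.50 in the pools of day 1. Every day 3 pool was above every day 1 pool, which was a condition for naming the leading genes and is no further support. The change was 3.33 ± 0.30 (SE), a 10.0-fold difference of the ratios (adjusted p = 7.9e-06 in limma). The log2 level of its probe was 11.60, 12.37 and 12.36 in right lungs and 9.45, 9.56 and 8.78 in left lungs on day 3, against 9.27, 8.76 and 9.07 in right lungs and 9.62, 9.35 and 9.57 in left lungs on day 1. The right lungs of day 3 alone were high, and the other 9 arrays lay between 8.76 and 9.62.

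Birc5, which encodes survivin of the chromosomal passenger complex, had ratios of 2.98, 2.89 and 3.52 on day 3, against -0.19, -0.08 and -0.19 on day 1. Its change was 3.28 ± 0.24 (SE, adjusted p = 1.2e-06 in limma). Mki67, whose protein coats mitotic chromosomes and is the usual marker of cycling cells, had 2.53, 3.26 and 3.46 on day 3, against 0.39, 0.14 and 0.02 on day 1. The kinase Cdk1 (Cdc2a on the array), which drives entry into mitosis, had 2.72, 3.01 and 3.85 on day 3, against 1.06, 0.08 and -0.13 on day 1. In each of these genes the groups were separate, as the rule for naming leading genes required. In Cdk1 a single day 1 pool, replicate 1, was already raised. Cdc20, which activates the anaphase promoting complex, had 1.90, 2.74 and 2.77 on day 3, against 0.01, -0.30 and 0.12 on day 1, and all 3 of its probes rose.

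For 4 leading genes of the spindle and the centromere the response turned from a fall on day 1 to a rise on day 3. Spag5, a spindle protein, had the largest rise of any gene named by rule, with 2.25, 2.58 and 3.19 on day 3, against -0.92, -0.82 and -0.60 on day 1 (change 3.46 ± 0.28 SE, an 11.0-fold difference, adjusted p = 2.6e-06 in limma). Stmn1, which destabilizes microtubules, had 1.30, 1.31 and 1.90 on day 3, against -0.87, -0.69 and -1.02 on day 1. Nusap1, which bundles spindle microtubules, had a mean of 1.84 ± 0.47 on day 3, against -0.83 ± 0.41 on day 1 (SD, n = 3 pools each). Cenpa, the histone H3 variant of centromeres, had 0.81, 1.64 and 2.15 on day 3, against -0.40, -1.52 and -1.09 on day 1. Their right lungs of day 1 were thus below the left lungs of the same mice, and those of day 3 above them. Kif23 (Knsl5 on the array), a kinesin of the midbody, was the only tested member of the mitosis list whose change was not called (0.18 ± 0.27 SE, adjusted p = 0.76 in limma).

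The other leading rises were of the same kind by their known roles. Pbk, a mitotic kinase, had 2.48, 3.24 and 4.06 on day 3, against -0.01, 0.20 and -0.18 on day 1. Cdkn3, a phosphatase of cyclin dependent kinases, had 2.25, 2.99 and 4.27 on day 3, against 0.57, -0.38 and -0.07 on day 1. Cdca2 and Cdca3, which act on entry into and exit from mitosis, changed by 3.00 ± 0.31 and 2.79 ± 0.33 (SE). Core histone probes also rose, 21 of 48 tested, by 0.70 to 2.94, with none that fell. Histone genes are near-identical copies, so the single genes behind these probes, such as H2ac12 (Hist1h2ah on the array, change 2.77 ± 0.30 SE), are uncertain.

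**Figure D1:**
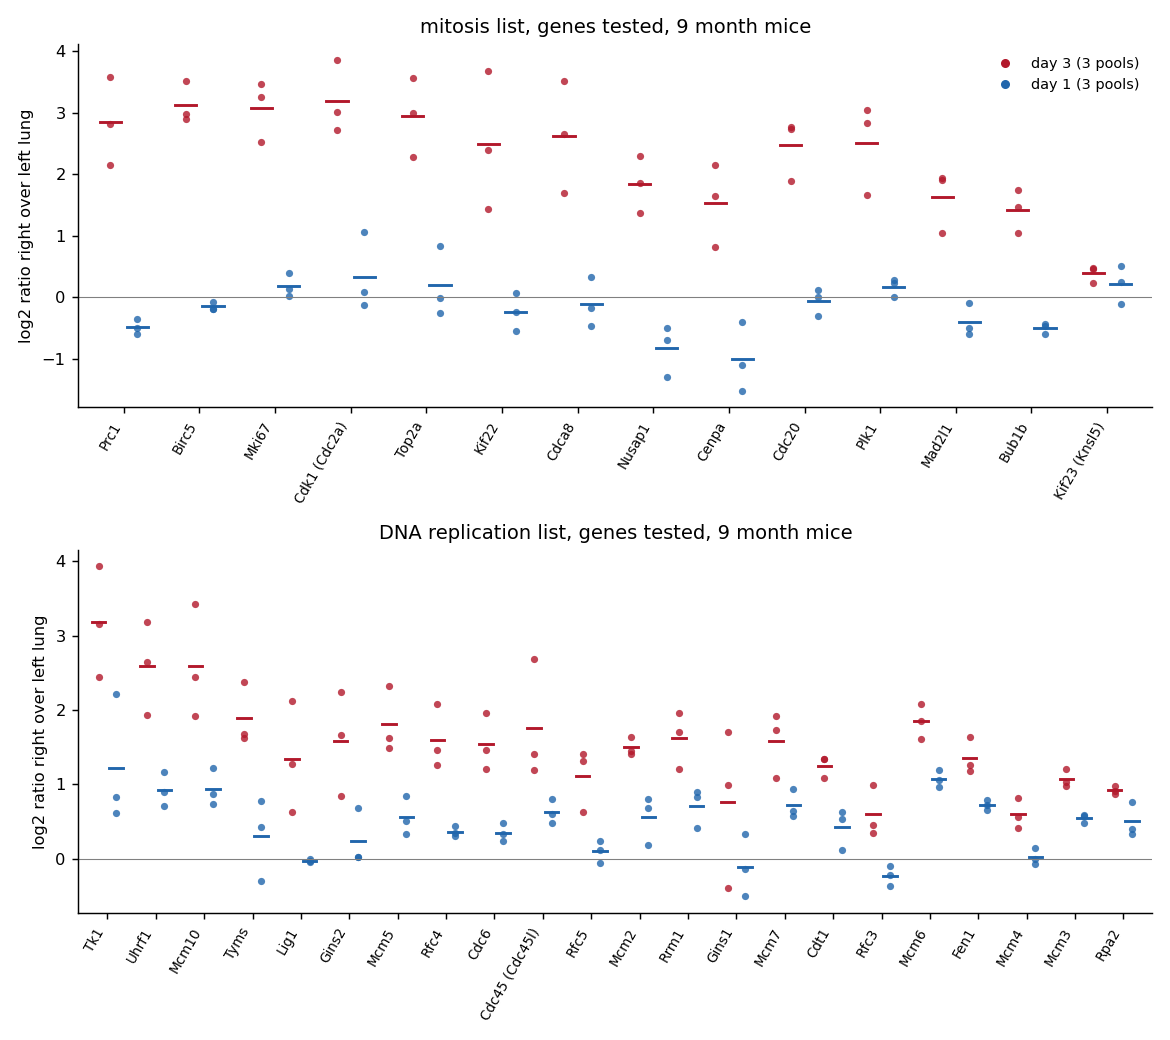
Log2 ratio of right over left lung (vertical axis) of the tested genes of the mitosis list (top) and the DNA replication list (bottom), with 1 point per pool and a line at the mean of 3 pools for day 3 (red) and day 1 (blue). The mitosis genes other than Kif23 lay near or below 0 on day 1 and well above it on day 3, while many replication genes were already above 0 on day 1.

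The response of DNA replication genes also rose. Of 28 listed genes 22 were tested and 15 rose between the days, with a median change of 0.98 over the 22. On day 3 the response of 21 was up with a median of 1.56, and on day 1 that of 8 was up with a median of 0.52. The count of 15 rises was 9 of 28 without the detection filter and 4 with only the 6 ratios of these days in the fit. Tk1, the thymidine kinase of the salvage pathway, had 2.45, 3.16 and 3.93 on day 3, against 2.21, 0.61 and 0.82 on day 1. The groups did not overlap, although replicate 1 of day 1 came near the lowest pool of day 3. Mcm10, which loads polymerase alpha at origins, had 1.92, 2.44 and 3.43 on day 3, against 0.73, 1.22 and 0.87 on day 1 (change 1.65 ± 0.31 SE, adjusted p = 0.0064 in limma).

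Mcm5, a subunit of the replicative helicase, had 1.49, 1.62 and 2.32 on day 3, against 0.84, 0.50 and 0.33 on day 1. It counts as a start by the thresholds, since its day 1 mean of 0.56 lay just under 1.5-fold (adjusted p = 0.0079 in limma). Tyms, which makes thymidylate, had 1.63, 1.68 and 2.38 on day 3, against 0.42, 0.77 and -0.30 on day 1. Lig1, which joins Okazaki fragments, had 0.63, 1.28 and 2.11 on day 3, against -0.03, 0.00 and -0.05 on day 1. Pclaf (2810417H13Rik on the array), which binds the sliding clamp PCNA, grew to 3.28, 2.84 and 3.24 on day 3, against 0.92, 0.28 and 0.99 on day 1. Over the 22 genes the summed level of right lungs was 21379 to 31024 on day 3 and 13130 to 14341 on day 1, in arbitrary units of intensity, while left lungs summed to 8994 to 10484 on day 3 and 9628 to 10525 on day 1. The count of 15 replication genes was 6 without replicate 3 of day 3 or replicate 2 of day 1, 7 without replicate 3 of day 1 and 8 without replicate 2 of day 3. The 13 mitosis genes were called without any of the 6 pools.

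Across the genome the response of 471 probes (435 genes) rose and that of 312 probes (286 genes) fell between the days. The day 3 and day 1 ratios did not overlap for 461 of the rises and 310 of the falls. Such separation largely follows from a call, and its share over all probes is not given, so these counts add no support. Before adjustment, 3337 probes had a p under 0.05. By class, 183 probes started to rise on day 3 and 83 started to fall, meaning that the change and day 3 were called and day 1 was not. A rise of day 1 had ended by day 3 for 131 probes and a fall of day 1 had ended for 156. The response grew for 16 rises and 3 falls, and was smaller on day 3 for 11 rises and 5 falls. It turned up for 12 probes and down for 5. The change was called with neither day called for 99 rises and 79 falls. In all, 668 probes were called up on both days and 893 down on both days, of which the change was called for 27 and 8. The class rests on thresholds on each day, so it describes the calls and is not itself a test.

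**Figure D2:**
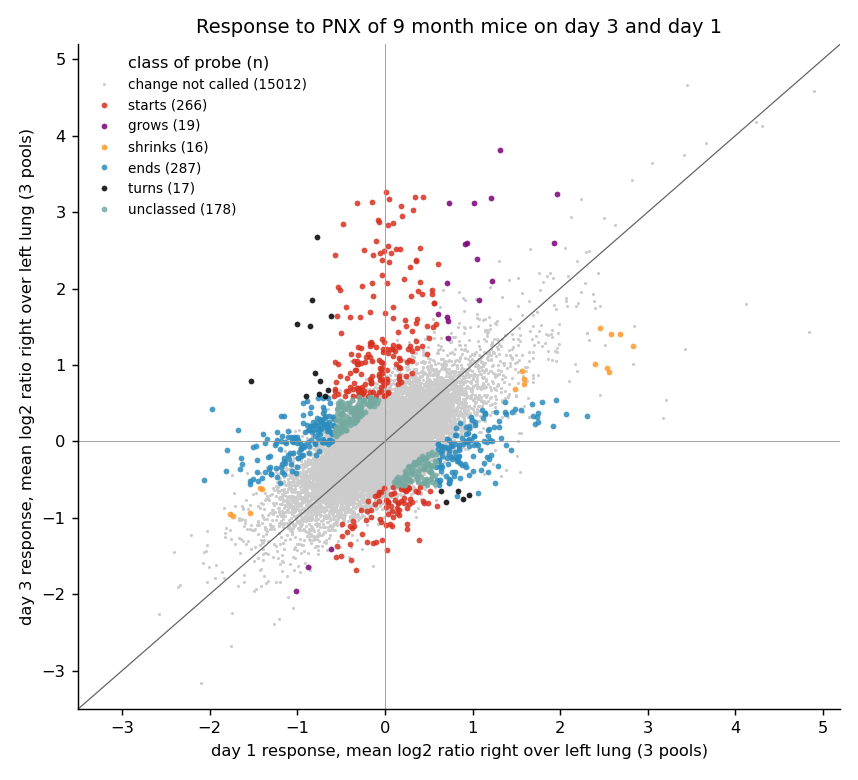
Mean log2 ratio of right over left lung on day 3 (vertical axis) against day 1 (horizontal axis) for the 15795 probes tested, each a mean of 3 pools, with the probes whose change was called coloured by class and the line of equal response drawn. Rises that started on day 3 reach far above the line near 0 on the day 1 axis, and ended responses lie along 0 on the day 3 axis.

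The counts depended on which pools gave the estimate of spread and on single pools. With only the 6 ratios of 9 month mice on days 1 and 3 in the fit there were 147 rises and 70 falls. Without replicate 2 of day 3 there were 197 rises and 114 falls, without replicate 2 of day 1 there were 211 and 95, and without replicate 3 of day 1 there were 311 and 197. The right lungs of day 3 replicates 1 and 3 correlated least with each other (r of their pool ratios 0.61). With both left out, an alternative chosen after seeing the data, day 3 is 1 pool that is assumed to vary like the other groups. That fit called 153 rises and 64 falls, with 13 mitosis genes and 3 DNA replication genes among the rises.

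The change lay mostly in the right lungs. Set against each other, the right lungs of the days differed for 1136 probes (7.19%), and the left lungs for 3 (0.019%). Those 3 were Serpina3g, higher by 0.91 on day 3, Armcx4 (AI448196 on the array), higher by 0.85, and the clone 9630009A08Rik, whose left lung level fell by 0.93, and none of them is among the called changes. Of the 783 changes, right lungs moved the same way in 783, passing the test alone in 333 rises and 178 falls. The change is the right lung difference minus the left lung difference. The shared direction thus largely follows from a call and adds no support. The left lungs moved by more than the right lungs in 41 of the rises and 39 of the falls, so there the baseline cohort carried the larger part of the value.

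Outside the cell cycle, rises that grew from day 1 included those of Fcna, Adamts12 and Sfrp1. Fcna, a secreted lectin of the ficolin family, had 3.84, 3.19 and 4.42 on day 3, against 1.77, 1.00 and 1.18 on day 1 (change 2.50 ± 0.41 SE, adjusted p = 0.0022 in limma). Adamts12, a secreted metalloprotease, had 1.99, 3.80 and 3.56 on day 3, against 1.06, 0.77 and 1.21 on day 1. In both the groups were separate, as the naming rule required, with replicate 1 of day 3 the lowest for Adamts12. Sfrp1, a secreted antagonist of Wnt, averaged 2.10 ± 0.40 on day 3 and 1.23 ± 0.19 on day 1 (SD, n = 3 pools each), and both of its probes grew. The Wnt and Notch list had 2 rises among 19 genes, Sfrp1 and Wnt3a, and a median change of 0.03. Wnt3a was a day 1 fall (mean -1.51) that had ended by day 3 (mean -0.49).

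Of the interstitial collagens, 2 of 10 tested rose between the days, with a median change of 0.40. Col1a2, a chain of type I collagen, had 1.51, 1.53 and 1.98 on day 3, against 0.77, 0.39 and 0.64 on day 1 (change 1.07 ± 0.21 SE, adjusted p = 0.0075 in limma). Col14a1, a fibril associated collagen, had 0.63, 0.68 and 0.68 on day 3, against 0.07, -0.40 and -0.55 on day 1. On day 3 the response of 9 of the 10 was up, and on day 1 that of 7. Col3a1 and Col1a1 had the strongest responses on both days, with means of 3.17 and 3.42 on day 3, against 2.24 and 2.82 on day 1, and their changes were not called (adjusted p = 0.086 and 0.25 in limma). Mmp2, a gelatinase, averaged 1.22 ± 0.18 on day 3 and 0.36 ± 0.35 on day 1 (SD, n = 3 pools each). None of 16 collagen processing genes was called, with 0 of them at an unadjusted p under 0.05.

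Macrophage genes moved in both directions. Among 15 markers of monocytes and macrophages 2 rose and 2 fell, with a median change of 0.50. Adgre1 (Emr1 on the array), an adhesion receptor that marks macrophages, had 0.56, 1.04 and 0.47 on day 3, against -0.23, -0.76 and -0.11 on day 1. C1qa, a chain of complement C1q, had 1.06, 1.63 and 1.23 on day 3, against 0.51, 0.03 and 0.52 on day 1. Lyz1 (Lyz on the array), a lysozyme, fell by 0.74 on 1 of its 3 probes, and is uncertain beside its near copy Lyz2, whose change was not called (adjusted p = 0.34 in limma). Ly6c1, which fell by 1.03, is also an endothelial transcript.

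Trem2, a lipid receptor of macrophages, was the single rise among 13 genes of the IL-4 and repair macrophage list, with 1.08, 1.76 and 1.69 on day 3, against 0.42, 0.47 and 0.55 on day 1. The list had a median change of 0.51. Arg1, arginase 1, had the highest response of the list, 4.36, 4.77 and 4.87 on day 3, against 3.65, 3.35 and 3.36 on day 1, and its change was not called (1.21 ± 0.49 SE, adjusted p = 0.16 in limma). None of 7 neutrophil markers was called, with 2 at an unadjusted p under 0.05. Igf1, a growth factor made by macrophages and fibroblasts, rose to 1.09, 2.19 and 2.15 on day 3, against 0.81, 0.42 and 0.44 on day 1, on 1 of its 2 probes. Among the 18 growth factors and receptors tested, Igf1 and Pdgfa rose and Pdgfb fell.

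Without single pools, some of these calls were lost with the direction kept. Those of Fcna, Adamts12, Col1a2, Col14a1 and Lyz1 were kept without each of the 6 pools. Sfrp1 missed the threshold without replicate 2 of day 3 or replicate 3 of day 1 (adjusted p in limma up to 0.067). C1qa, Adgre1 and Wnt3a missed it without replicate 2 of either day (up to 0.12, 0.070 and 0.080). Igf1 missed it without replicate 2 of day 3 (0.055), Mmp2 without 3 of the pools (up to 0.11), Trem2 without 5 of them (up to 0.11), Pdgfb without 2 (up to 0.067), Ly6c1 without 5 (up to 0.12) and Pdgfa without any 1 of the 6 (up to 0.075).

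Responses that ended were led by falls of day 1. Aplnr (Agtrl1 on the array), the apelin receptor of endothelial cells, had -0.10, 0.86 and 0.52 on day 3, against -2.06, -2.70 and -1.17 on day 1 (change 2.40 ± 0.35 SE, adjusted p = 0.00070 in limma). The day 1 right lungs alone were low, with a mean log2 level of 6.69, and the means were 9.01 in right lungs and 8.59 in left lungs of day 3 and 8.67 in left lungs of day 1. Ctsf, a lysosomal cysteine protease, had -0.12, -0.32 and -1.10 on day 3, against -2.02, -2.11 and -2.07 on day 1. Ndnf (A930038C07Rik on the array), a secreted factor, had -0.41, 0.22 and -0.15 on day 3, against -1.72, -2.50 and -1.18 on day 1, and its mean was -1.38 again on day 7. The call of Ndnf was lost without replicate 2 of day 3 or of day 1 (adjusted p up to 0.082), and those of Aplnr and Ctsf were kept without each pool.

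The largest falls of the response included genes whose day 1 rise had ended or shrunk. They also included genes that turned from a rise to a fall, which are given further below. Tinagl1 (Tinagl on the array), a matrix protein, had -0.24, -0.37 and 1.62 on day 3, against 2.10, 2.82 and 1.99 on day 1 (change -1.97 ± 0.43 SE, adjusted p = 0.014 in limma). Calca, which encodes calcitonin and CGRP and is made by neuroendocrine cells of the airway, had 0.16, 0.33 and 0.60 on day 3, against 1.89, 2.50 and 1.80 on day 1, on 1 of its 2 probes. Bcl2l1, which encodes Bcl-xL, had 0.55, -0.05 and 0.25 on day 3, against 1.71, 1.95 and 1.57 on day 1, on 2 of its 3 probes. The groups were separate in all 3 genes, as the naming rule required. Replicate 3 of day 3 stood high for Tinagl1, which changed on 1 of its 2 probes.

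Plat, the tissue plasminogen activator, kept a smaller rise of 0.23, 0.80 and 1.69 on day 3, against 2.39, 3.14 and 2.13 on day 1. Alpl (Akp2 on the array), an alkaline phosphatase, had -0.07, 0.85 and 2.11 on day 3, against 2.51, 2.65 and 2.45 on day 1. Serpina3n, an acute phase protease inhibitor, averaged 1.49 ± 0.54 on day 3 and 2.46 ± 0.08 on day 1 (SD, n = 3 pools each), and its call was lost without replicate 2 of either day (adjusted p up to 0.066 in limma). Among 15 matrix proteases and inhibitors Plat, Adamts15 and Timp3 fell and Mmp2 rose, with a median change of -0.05. The calls of Adamts15 and Timp3 were lost without any 1 of 6 pools and without 2 of them (up to 0.10 and 0.063). Timp1, which inhibits many of them, had a strong response on both days, with a mean of 4.19 on day 3 and 4.24 on day 1, and no change was called (-0.05 ± 0.33 SE). Cdkn1a, the cell cycle inhibitor p21, fell by 1.28 and 1.18 on 2 of its probes and by 1.15 on its brightest probe, where the change was not called (adjusted p = 0.070 in limma).

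Among 9 cardiac muscle markers 1 fell, Actc1, with a list median of -0.30, and among 12 genes of myofibroblasts and smooth muscle 1 fell, Actg2, with a list median of -0.09. Actc1, the cardiac actin, had -0.19, -0.11 and -0.06 on day 3, against 1.65, 1.62 and 1.03 on day 1 (change -1.55 ± 0.24 SE, adjusted p = 0.0014 in limma). Flnc, the filamin of striated muscle, had 0.11, 1.43 and 2.20 on day 3, against 2.96, 3.06 and 2.48 on day 1. Actg2, the enteric smooth muscle actin, fell by 1.06 ± 0.23 (SE). The markers of skeletal muscle did not pass the test, 0 of 6 called with 3 at an unadjusted p under 0.05 and a median change of -2.02. Their median response was 3.02, 1.11 and 4.13 on days 1, 3 and 7, with 5, 2 and 5 of the 6 up. Ckm, muscle creatine kinase, had -0.87, -1.21 and 3.71 on day 3, against 3.24, 3.07 and 3.32 on day 1.

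The summed level of the 6 skeletal muscle markers in right lungs was 2239, 4361 and 20051 in replicates 1, 2 and 3 of day 3, against 20797, 14925 and 12206 on day 1. In left lungs it was 3669 to 4172 on day 3 and 4298 to 5233 on day 1. The right lungs of day 1 and of replicate 3 of day 3 were the high ones. Tinagl1, Plat, Flnc and Alpl also had their highest day 3 ratio in replicate 3. So did cell cycle genes such as Prc1, Birc5, Mki67 and Cdk1, but each of their day 3 pools was above every day 1 pool. Tcap alone of the list was below 0 on both days. The part of this RNA in the falls of Actc1, Flnc, Actg2, Tinagl1, Plat and Alpl was not tested. Without replicate 3 of day 3 the changes were -1.58 for Actc1, -2.06 for Flnc, -2.61 for Tinagl1, -2.04 for Plat and -2.15 for Alpl. Without single pools the call was lost for Plat in 1 case (adjusted p up to 0.053), for Tinagl1 and Actg2 in 3 (up to 0.076 and 0.055), for Flnc in 4 (up to 0.11) and for Alpl in 5 (up to 0.14), and for Actc1, Calca and Bcl2l1 in none.

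**Figure D3:**
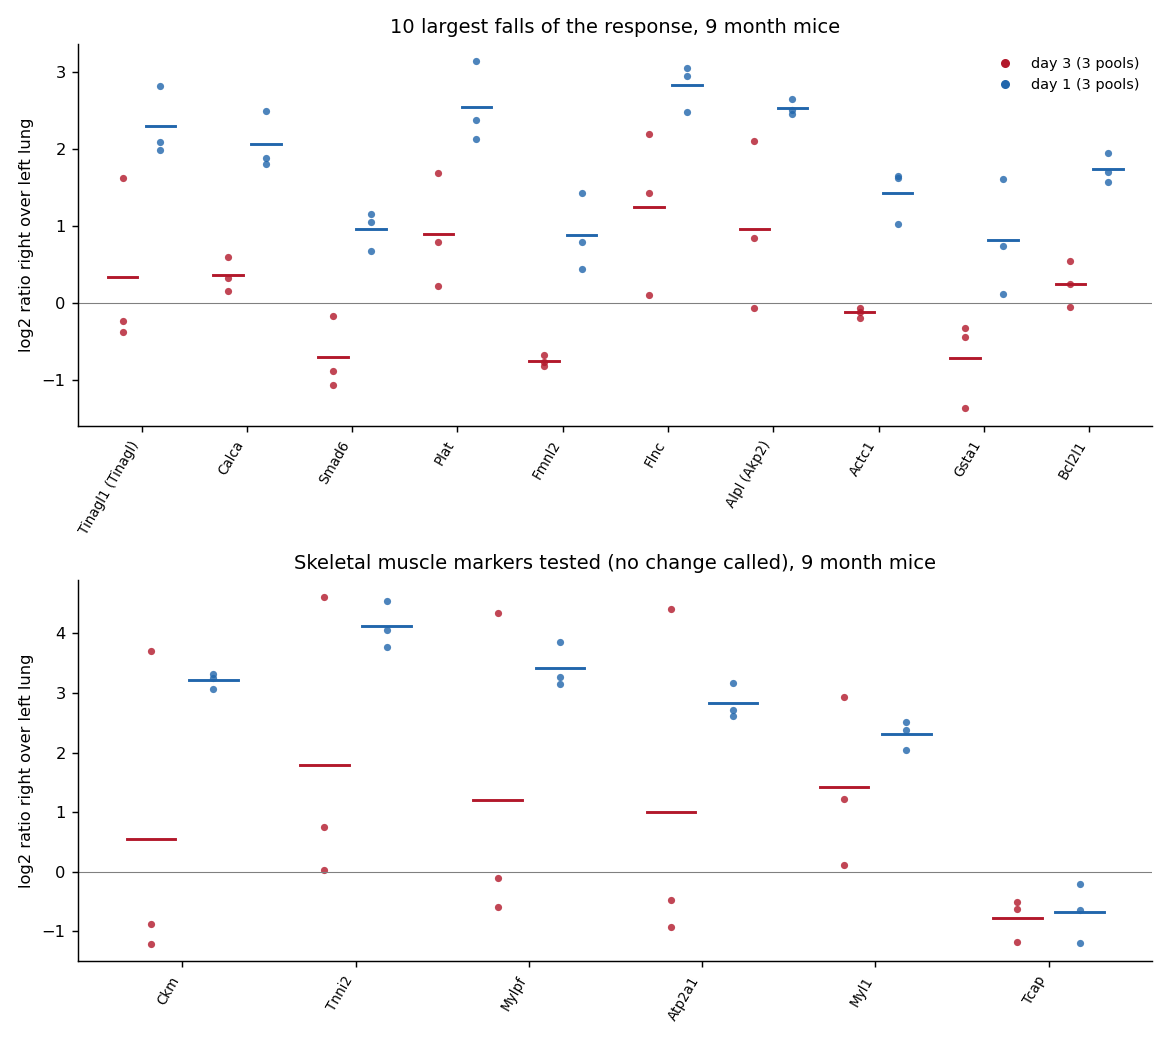
Log2 ratio of right over left lung (vertical axis) of the 10 genes with the largest called falls (top) and of the 6 skeletal muscle markers tested (bottom), with 1 point per pool and a line at the mean of 3 pools for day 3 (red) and day 1 (blue). For Ckm, Tnni2, Mylpf and Atp2a1 replicate 3 of day 3 lay between 3.71 and 4.61, above every day 1 pool, and the other day 3 pools at 0.75 or below.

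Turns from a rise to a fall were those of Fmnl2, Gata2, Smad6, 1 of 2 probes of Tbx3 and the clone 6030495B01Rik. Fmnl2, a formin that nucleates actin filaments, had -0.68, -0.82 and -0.76 on day 3, against 0.79, 1.43 and 0.45 on day 1 (change -1.64 ± 0.20 SE, adjusted p = 0.00012 in limma). Gata2, a transcription factor of endothelial and blood cells, had -0.49, -0.77 and -0.70 on day 3, against 0.64, 0.76 and 0.52 on day 1. Smad6, which inhibits BMP signalling, had -0.16, -1.07 and -0.88 on day 3, against 1.05, 1.16 and 0.67 on day 1. Each had all day 1 pools above 0 and all day 3 pools below it. Smad6 missed the threshold without replicate 2 of day 3 or of day 1 (adjusted p up to 0.080). In the TGF-beta and BMP list 2 of 15 genes fell, Smad6 and the receptor Bmpr2 (2610024H22Rik on the array), and the median change was -0.23. The call of Bmpr2 was lost without 4 of the pools (up to 0.093).

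Endothelial markers were called down in 4 of 17 cases with a median change of -0.24. None was called up, and 6 of the 17 had a change above 0. Eng, the co-receptor endoglin, had -0.15, -0.88 and -0.29 on day 3, against 0.53, 0.75 and 0.42 on day 1 (change -1.01 ± 0.17 SE, adjusted p = 0.0030 in limma). Cdh5, the cadherin of endothelial junctions, had 0.01, -0.23 and -0.17 on day 3, against 0.67, 0.60 and 0.67 on day 1. Robo4 and Pecam1 fell by 0.76 and 0.78 (Pecam1 on 1 of its 2 probes). A part of each value was in the left lungs, where Eng was higher on day 3 by 0.29, Cdh5 and Robo4 by 0.34 and Pecam1 by 0.29, while in right lungs the differences were -0.71, -0.44, -0.42 and -0.50. The summed level of the 17 markers was 107140 to 127310 in right lungs and 150120 to 164360 in left lungs on day 3, against 117890 to 127480 in right lungs and 125580 to 135790 in left lungs on day 1. The left lungs of the day 3 cohort were the highest, and their part in the falls was not tested. Cdh5 missed the threshold without 1 pool, Robo4 without 3 and Pecam1 without 5 (adjusted p up to 0.055, 0.10 and 0.17), and the call of Eng was kept without each pool.

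Falls that started on day 3 were led by Nkd2, an antagonist of Wnt signalling, with -1.21, -1.23 and -1.85 on day 3, against 0.44, -0.35 and -0.01 on day 1 (change -1.45 ± 0.24 SE, adjusted p = 0.0022 in limma). Cyp4b1, a cytochrome P450 of the lung, had -0.55, -1.54 and -1.78 on day 3, against 0.04, 0.05 and -0.17 on day 1. Xpnpep2, an aminopeptidase of cell membranes, had -1.78, -1.99 and -1.27 on day 3, against -0.60, -0.42 and 0.04 on day 1. Scgb1a1, the main secretory protein of club cells, had -0.52, -0.60 and -0.74 on day 3, against 0.32, 0.15 and 0.08 on day 1. It was the single fall among 12 airway markers, whose median change was -0.07. These 4 calls were kept without each single pool.

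Epithelial lists moved little. Of 12 type II cell markers Il33, an alarmin, rose by 0.66, and of 11 type I markers Rtkn2 (Plekhk1 on the array) rose by 0.92 as its day 1 fall ended, on 1 of its 4 probes. The median changes of these lists were 0.01 and -0.07. The call of Il33 was lost without any 1 of the 6 pools and that of Rtkn2 without 4 of them (adjusted p up to 0.12 and 0.13 in limma). Of 14 genes of cholesterol synthesis 2 fell (14.3%, where 2.02% of all genes fell), with a median change of -0.20 and 5 at an unadjusted p under 0.05 in limma. Sqle, squalene epoxidase of cholesterol synthesis, fell by 0.89 on 1 of its 2 probes, and missed the threshold without replicate 2 of either day (up to 0.10). The 4 mesothelial markers had a median change of -0.19, and only 1 of them, Msln, had a change above 0. Msln, mesothelin of the lung surface, grew to a mean of 3.23 ± 0.29 on day 3, against 1.96 ± 0.54 on day 1 (SD, n = 3 pools each), the single called change of that list. Its call was lost without 4 of the pools (up to 0.16).

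Lists of the acute phase, stress hormones and interferon held no called change. Among 12 acute phase genes and cytokines 0 were called, with 5 at an unadjusted p under 0.05. Saa3, a serum amyloid A, had 4.50, 5.07 and 4.17 on day 3, against 4.99, 4.55 and 5.17 on day 1, which overlapped. The glucocorticoid response list had a median change of -0.55 with 0 of 13 called and 6 at an unadjusted p under 0.05. Pdk4, a hormone responsive kinase, averaged 0.60 on day 3 and 2.45 on day 1, with pools of day 3 from -0.88 to 1.92 (adjusted p = 0.061 in limma). The interferon response list had a median of -0.46, with 0 of 13 called and 3 at an unadjusted p under 0.05. Of 10 T and NK cell markers 7 were down on each day and 0 changed, with 0 at an unadjusted p under 0.05. The methods' t-test with adjustment called 0 changes in every list, as it did over all probes.

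**Figure D4:**
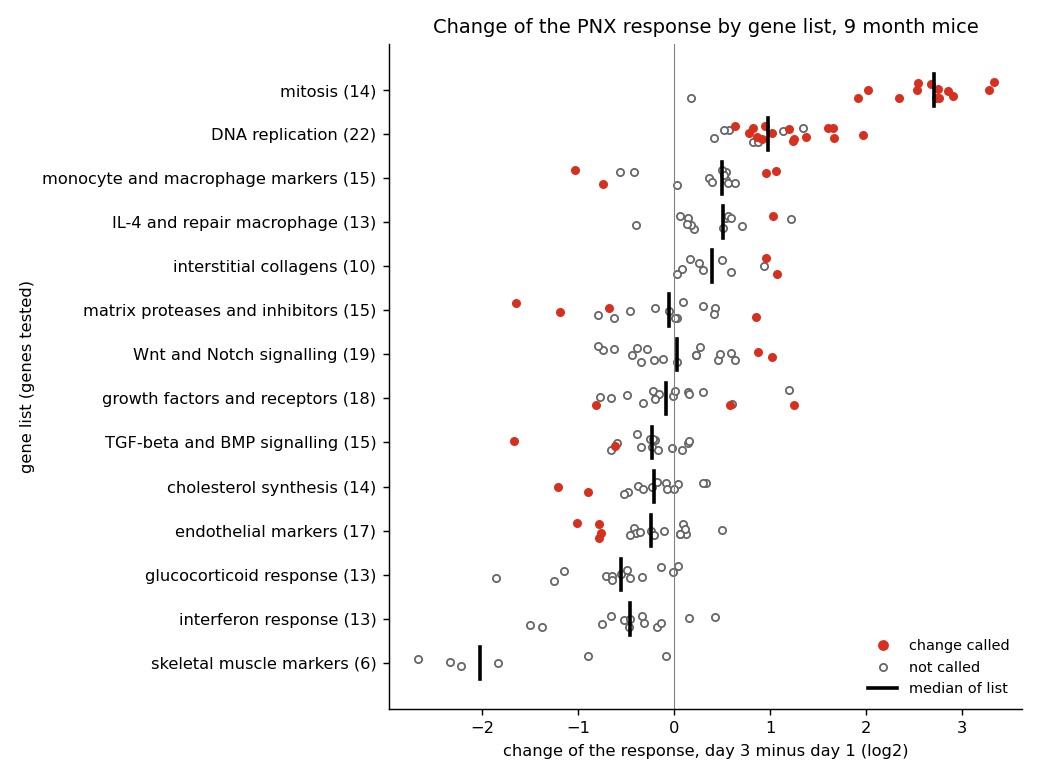
Change of the response (horizontal axis, mean log2 ratio of day 3 minus that of day 1) for each tested gene of 14 lists, filled where the change was called, with a bar at the median of the list. Mitosis and DNA replication lie to the right with medians of 2.70 and 0.98, and the skeletal muscle markers to the left with a median of -2.02 and no call.

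Day 7 was measured in 3 further pools of 9 month mice with their own left lungs. The day 7 means did not enter the classes of days 1 and 3. The day 7 ratios did enter the shared estimate of spread behind those calls, so day 7 is not a fully separate readout. Over all probes 9.54% were called up and 12% down on day 7. Of the 183 rises that started on day 3, 132 were called up on day 7, with medians of -0.04, 1.15 and 0.94 on days 1, 3 and 7. Of the 83 falls that started, 51 were called down on day 7, with medians of 0.05, -0.85 and -0.69. Of the 131 ended rises 6 were called up on day 7 and 18 down, and of the 156 ended falls 12 were called down and 16 up. The 16 probes whose rise grew were all up on day 7, among them Fcna with a mean of 3.84 and Msln with 3.57. For the mitosis list the median on day 7 was 2.49, with 13 of 14 up, and for DNA replication 0.98, with 16 of 22 up.

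**Figure D5:**
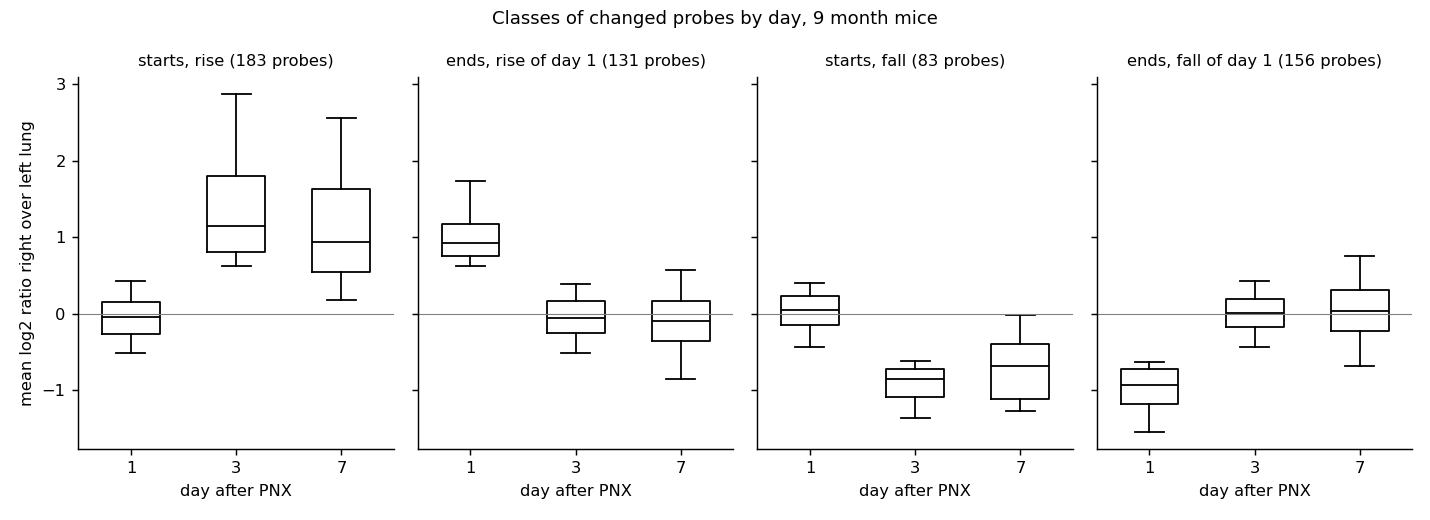
Mean log2 ratio of right over left lung (vertical axis) on days 1, 3 and 7 after PNX (horizontal axis) for the probes of 4 classes in 9 month mice, each mean over 3 pools, with boxes at the quartiles, a line at the median and whiskers at the 5th and 95th percentiles. The means of days 1 and 3 set the class, with an estimate of spread that day 7 ratios shared. On day 7 the medians were 0.94, -0.10, -0.69 and 0.04 from left to right.

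The 3 month mice of the series had the same days on the same chips. In them 367 probes (2.32%) rose between the days and 199 (1.26%) fell, of which 155 rises and 48 falls were also called in 9 month mice. Of the 471 rises and 312 falls of 9 month mice, 437 and 254 had the same direction in 3 month mice. The share of all probes with the same direction in both ages is not given. The ages also shared the chips of each day, so these counts add no support. No age difference of the change was called (0% of probes, smallest adjusted p = 0.087 in limma), with 1419 probes at an unadjusted p under 0.05 and 0 called by the methods' t-test with adjustment. Without replicate 1 of day 3 of the 9 month mice 4 were called. The median change of the mitosis list was 2.70 in 9 month mice and 1.79 in 3 month mice. For DNA replication it was 0.98 in 9 month mice and 0.32 in 3 month mice.

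The day 1 calls of the ages differed for some of these genes, and the age difference on day 1 was not tested. On day 1, 0 of the 14 mitosis genes were up in 9 month mice and 3 in 3 month mice. Of the 22 replication genes 8 were up in 9 month mice and 12 in 3 month mice. Over all 11410 genes, 1056 were up on day 1 in 9 month mice and 667 in 3 month mice. Birc5 on day 1 had -0.19, -0.08 and -0.19 in 9 month mice, against 0.99, 1.09 and 0.73 in 3 month mice, and on day 3 it had 2.98, 2.89 and 3.52 in 9 month mice, against 2.67, 2.78 and 2.18 in 3 month mice. The difference of its changes was 1.67 ± 0.34 (SE) and did not pass the test over all probes (adjusted p = 0.18 in limma). On every chip the 9 month and the 3 month pools lay at different positions, so age and position cannot be told apart.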

How the data were processed

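RNA of whole lungs, pooled from 2 mice per sample, was measured on Illumina MouseWG-6 v2 bead arrays. The authors deposited the probe intensity of each array without normalization, with values below 0, and a detection p-value per probe. A deposited value table holds the authors' normalized log2 values, which were used as an alternative. From the intensities, background was corrected by normexp with an offset of 16, arrays were quantile normalized and log2 taken (limma 3.58.1, R 4.3.3). Only probes detected on every one of the 36 arrays (detection p under 0.05) were kept. The right over left ratio of each of the 18 pools entered limma with 6 groups, and day 3 was set against day 1 in 9 month mice. The brightest probe stood for a gene. Of 30789 symbols, 21841 matched RefSeq (GRCm38.p6). Genes named were the 10 largest called rises and falls, leaders of each class and members of gene lists. The largest rises and falls and the class leaders were taken only from genes whose day 3 and day 1 ratios did not overlap. The members and lists were chosen with earlier results of these data known. The script was tested on simulated data. Alternatives were other background, scaling, filters, tests and sample sets, and each pool left out. The lungs of a pool were from the same mice, and their deviations from the group means correlated at 0.02 to 0.08. The result of 1 list member is not reported here.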

Additional observations from a re-analysis of the deposited data

How the results depend on the processing

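The 471 rises and 312 falls stayed within 1.5 times under most alternatives. Without the detection filter there were 188 falls. With only the 6 ratios of days 3 and 1 there were 147 rises and 70 falls, and with only the 9 ratios of 9 month mice 189 falls. The methods' t-test with adjustment called 0 rises and 0 falls, with 1820 probes at an unadjusted p under 0.05. Leaving out each pool gave 197 to 419 rises and 95 to 286 falls. Without day 3 replicates 1 and 3, chosen after seeing the data, there were 153 and 64, from a day 3 of 1 pool assumed to vary like the other groups. With the replicate number shared across days as a replicate block there were 414 rises and 260 falls, and with no replicate block (lungs unpaired) 554 and 408, and the numbers themselves pair no mice across days. The age difference had 6 calls with lungs unpaired and 0 to 4 without single pools. Left lungs had 0 to 10 calls without single pools, and right lungs 585 with the authors' log2 values. The direction turned for Tgfb3 (0.0022, mean of 9 left lungs as baseline), Lox (-0.90 to 0.036 without single pools) and Tnc (-0.45 to 1.10 without single pools), none of them called. The cause was not tested.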
